A study of Mus musculus with 12 samples.

Results

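The 10 genes described here, of 18193 named on the array, were read by 34 of its 45037 probe sets (controls left out): Haghl, Limd2, Rasgef1a, Hook3, Acsl6 and Robo1, which read higher in cultures with each β4 splice variant than in the eGFP cultures, and Zfyve28, Abl2, Zfp207 and Tpp2, which read lower. These directions hold for the probe set of each gene with the largest mean difference, and other probe sets of several genes did not follow. The genes had been picked from these same differences from eGFP, so the differences are given as a description with no test. The choice had no numeric threshold. Every probe set annotated to exactly 1 of the 10 symbols was taken, also those that did not shift. The 12 arrays came from cerebellar granule cells of lethargic mice (129/SvJ background, a mutation of Cacnb4), taken at postnatal day 7, with RNA extracted after 9 days in vitro. A lentivirus with β4a, β4b or β4e, or with eGFP in the control cultures, was given for 12 hours after plating, and the antimitotic Ara-C was added in all groups. Each group had 3 arrays, numbered 1 to 3 in every group. The eGFP cultures thus shared the mutation, a virus and Ara-C with the others. The labels do not say whether arrays came from separate cultures or pooled animals, so p-values measure the spread between these arrays, which may be technical.

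The β4 subunit binds the pore-forming subunit of voltage-gated calcium channels, brings it to the membrane and sets its gating, and some β4 splice forms are also found in the nucleus of neurons. Cerebellar granule cells make large amounts of β4, and the lethargic mutation removes most of the protein's function. The 10 genes belong to no single pathway. Robo1 is a receptor for the axon guidance ligands of the Slit family, and Abl2 is a tyrosine kinase that acts on actin and dendrite stability. Rasgef1a is an exchange factor that in human cells activates Rap2. Hook3 joins cargo to dynein and Zfyve28 is an endosomal protein with a FYVE domain. Acsl6 makes acyl-CoA from long-chain fatty acids such as docosahexaenoic acid in the brain, Haghl is a relative of glyoxalase II, and Limd2 is a small LIM domain protein. Zfp207 binds the spindle checkpoint protein Bub3, and Tpp2 is a large cytosolic peptidase that cuts tripeptides from peptide ends.

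Because the genes were picked for shifting alike, promoters of 4 of them are shown. RefSeq (GRCm38.p6) gave 16 promoter windows for 9 of the 10 genes. Printed are the 250 bases before the start, 5′ to 3′ on the gene's strand, of the first listed window of Rasgef1a and Haghl, both higher with the variants, and of Zfyve28 and Zfp207, both lower. Capitals mark matches on either strand to the GC box (letters GGGCGG), the CCAAT box, the E-box (letters CACGTG), the core of the cAMP response element (letters TGACG), the AP-1 site (letters TGANTCA) and the TATA box (letters TATAAA).
Rasgef1a, chr6:118011255-118011504, plus strand: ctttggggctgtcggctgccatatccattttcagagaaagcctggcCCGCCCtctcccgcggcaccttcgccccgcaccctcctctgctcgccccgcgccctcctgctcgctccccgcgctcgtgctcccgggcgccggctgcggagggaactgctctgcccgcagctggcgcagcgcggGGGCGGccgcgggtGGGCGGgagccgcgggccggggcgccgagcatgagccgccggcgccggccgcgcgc
Haghl, chr17:25785587-25785836, minus strand: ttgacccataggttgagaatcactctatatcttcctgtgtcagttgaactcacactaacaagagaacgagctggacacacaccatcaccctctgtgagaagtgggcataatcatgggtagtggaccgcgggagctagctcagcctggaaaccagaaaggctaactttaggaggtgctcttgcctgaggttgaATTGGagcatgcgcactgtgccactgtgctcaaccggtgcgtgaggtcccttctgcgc
Zfyve28, chr5:34288325-34288574, minus strand: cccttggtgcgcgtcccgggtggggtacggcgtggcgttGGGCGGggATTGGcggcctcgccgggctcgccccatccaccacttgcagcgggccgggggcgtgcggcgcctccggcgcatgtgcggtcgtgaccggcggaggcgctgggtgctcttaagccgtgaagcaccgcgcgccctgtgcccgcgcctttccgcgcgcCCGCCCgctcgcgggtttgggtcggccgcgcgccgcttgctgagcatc
Zfp207, chr11:80383029-80383278, plus strand: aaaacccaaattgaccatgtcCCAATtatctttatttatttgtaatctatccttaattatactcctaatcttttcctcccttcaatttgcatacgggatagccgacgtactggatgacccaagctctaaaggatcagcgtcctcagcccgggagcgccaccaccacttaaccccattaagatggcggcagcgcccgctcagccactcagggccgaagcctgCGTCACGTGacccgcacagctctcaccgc
The Rasgef1a and Zfyve28 windows are rich in G and C (78.4% and 76.8%) and hold 3 and 2 GC boxes in that order, whereas those of Haghl (52.4%) and Zfp207 (51.2%) hold 0. Zfp207 alone among the 9 genes had an E-box or a TGACG core, and there the 2 motifs overlap. GC boxes were in 10 of the 16 windows (62.5%), against 32.7% of all 32851 windows, and the median G and C content was 61.6% against 52.4%. CCAAT was in 8 of 16 (50.0%, against 33.9% of all), TGACG in 1 (6.25%, against 17.8%), AP-1 in 1 (6.25%, against 6.75%) and the E-box in 1 (6.25%, against 6.02%). The full cAMP response element (letters TGACGTCA) and the TATA box were in 0 of the 16, against 1.55% and 12.4% of all windows. Genes with several listed starts enter these counts more than once, and a match is not shown to be a site.

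The 12 arrays grouped by replicate number first. Replicate number accounted for 76% of the variance around each probe set's mean and group for 10.5%, so each variant array is set against the eGFP array with its own number, which gives 9 differences for a probe set. These 9 share 3 eGFP arrays and are not 9 independent measurements. Levels are log2 GCRMA intensities. A probe set was tested when it read above 4 in at least 3 of the 12 arrays, which 29 of the 34 and 23044 of all did. Cacnb4 itself had 3 probe sets, with 9-difference means of -0.25, -0.10 and 0.29. Where they lie relative to the viral insert is not given in the sources used here, so they do not check the labels.

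Taken per gene by its leading probe set, the one with the largest mean of the 9 differences in size, 6 genes were higher and 4 lower in 9 of 9 differences. Among all tested probe sets 4.86% were above eGFP in all 9 and 4.52% below. Over all 29 tested probe sets of the genes 14 had 9 differences of 1 sign, beside 9.38% of all. Since the genes were picked for this, nothing is read from these shares. In Haghl, Hook3, Zfyve28 and Abl2 the 9 variant arrays did not overlap the 3 eGFP arrays, a separation seen upward in 0.347% and downward in 0.104% of all tested probe sets. In the other 6 genes variant and eGFP arrays overlapped.

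**Figure D1:**
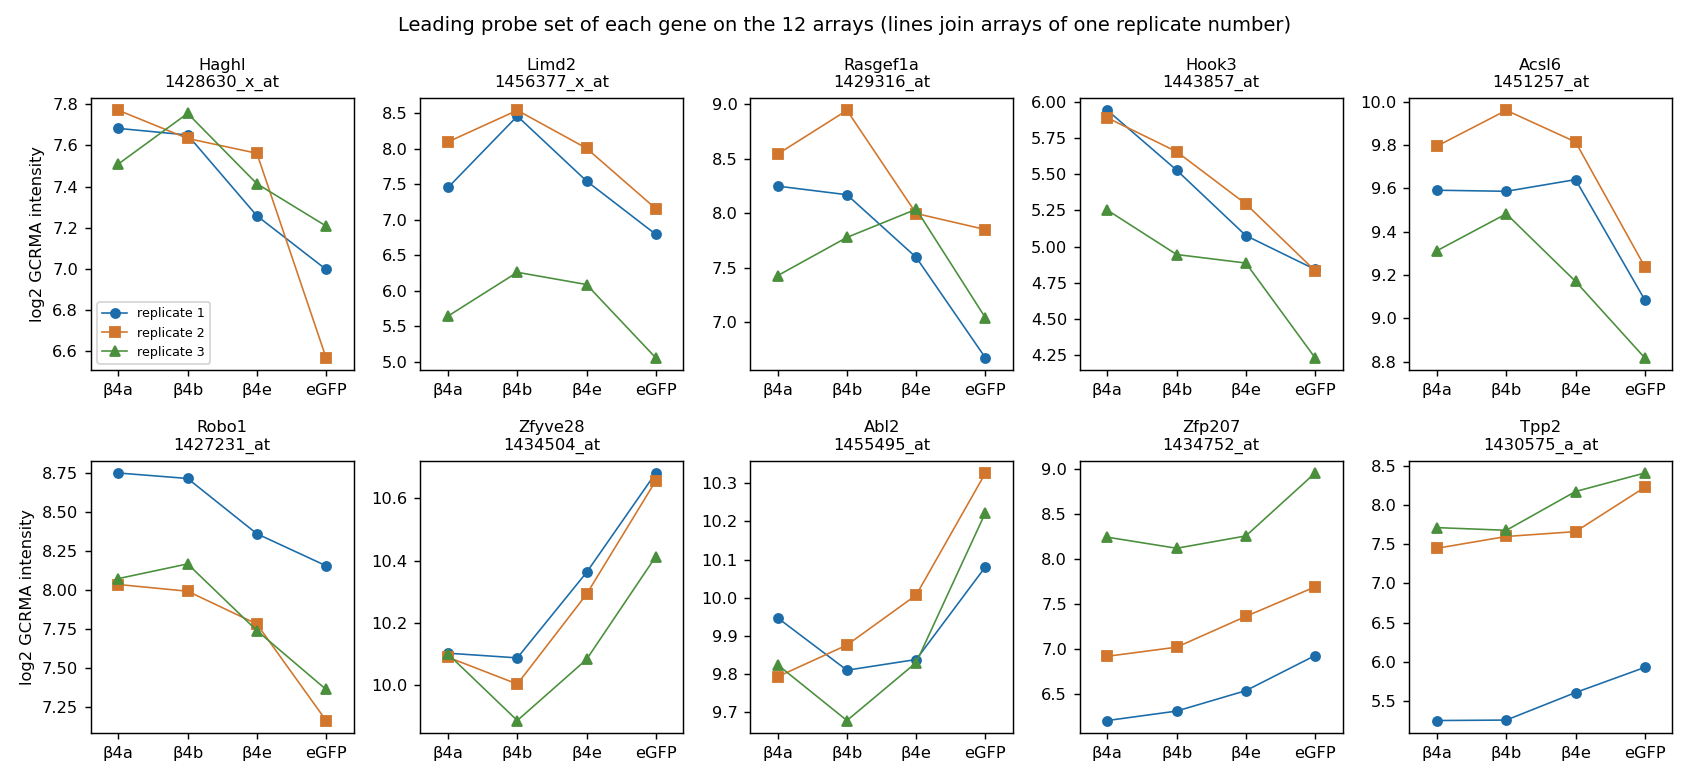
Log2 GCRMA intensity (y axis, scaled per panel) of the leading probe set of each gene in β4a, β4b, β4e and eGFP cultures (x axis), with 1 point per array and a line joining the 4 arrays of a replicate number. Each line ends at eGFP below the variants for Haghl, Limd2, Rasgef1a, Hook3, Acsl6 and Robo1 and above them for Zfyve28, Abl2, Zfp207 and Tpp2.

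Robo1, the Slit receptor, read 8.75, 8.03 and 8.07 with β4a, 8.71, 7.99 and 8.17 with β4b and 8.36, 7.78 and 7.74 with β4e in replicates 1 to 3, against 8.15, 7.16 and 7.36 with eGFP (probe set 1427231_at). Replicate 1 was highest in all 4 groups, and eGFP replicate 1 lay among the variant arrays of the other numbers. The mean difference was 0.73 ± 0.14 with β4a, 0.73 ± 0.15 with β4b and 0.40 ± 0.21 with β4e (SD of 3 differences), which is 1.65-fold, 1.66-fold and 1.32-fold. The 2 further probe sets of Robo1 read below 4 on all 12 arrays and give no usable difference. RefSeq places Robo1 on chromosome 16 from 72027518 to 73047491 (GRCm38.p6), with 4 non-coding genes overlapping its bounds.

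Abl2, the tyrosine kinase, was lower. Its leading probe set 1455495_at read 9.95, 9.79 and 9.82 with β4a, 9.81, 9.88 and 9.68 with β4b and 9.84, 10.01 and 9.83 with β4e, against 10.08, 10.33 and 10.22 with eGFP. All 9 variant arrays lay below the lowest eGFP array, with β4e replicate 2 the nearest to it. The mean differences were small, -0.36 ± 0.20, -0.42 ± 0.14 and -0.32 ± 0.08 for β4a, β4b and β4e. A second probe set, 1455682_at, did not follow: it averaged -0.05 over the 9 differences, with 4 above 0 and 5 below, and correlated at -0.08 with the first over the 12 arrays after the mean of each replicate number was subtracted. The third probe set read below 4 on every array.

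Rasgef1a, the Ras family exchange factor, was one of the genes whose probe sets went together. By 1429316_at it read 8.25, 8.54 and 7.43 with β4a, 8.17, 8.94 and 7.78 with β4b and 7.60, 7.998 and 8.04 with β4e, against 6.68, 7.85 and 7.04 with eGFP. Mean differences were 0.88 ± 0.62, 1.11 ± 0.38 and 0.69 ± 0.47, or 1.85-fold, 2.16-fold and 1.61-fold. The single differences were uneven, with 0.15 for β4e replicate 2 the lowest and 1.57 for β4a replicate 1 the highest. The second probe set, 1435218_at, was above eGFP in 9 of 9 differences too, with means of 1.02 ± 0.24, 0.73 ± 0.20 and 0.66 ± 0.03, and correlated at 0.80 with the first. For β4e it hardly varied, with 0.69, 0.67 and 0.63 in replicates 1 to 3. The gene lies on chromosome 6 from 118011505 to 118091546 and overlaps Mir7044 in RefSeq.

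Hook3, the dynein adaptor, shifted on 1 dim probe set of 4. That probe set, 1443857_at, read 5.94, 5.89 and 5.25 with β4a, 5.53, 5.66 and 4.95 with β4b and 5.08, 5.30 and 4.89 with β4e, against 4.84, 4.83 and 4.23 with eGFP. Each replicate number gave the order β4a, β4b, β4e, eGFP from high to low, and all 9 variant arrays were above the 3 eGFP arrays. Mean differences were 1.06 ± 0.04, 0.74 ± 0.07 and 0.45 ± 0.21. Another 2 probe sets of Hook3 averaged -0.06 (1435157_at, reading 7.24 to 8.82) and -0.01 (1439196_at, 6.68 to 7.26) over the 9 differences, each with 4 above 0 and 5 below. The fourth, 1446737_a_at, lay close to 4 and averaged 0.23 with 8 of 9 above 0. It passed the filter through 7 arrays, all with variants, while its eGFP arrays read 3.62 to 3.92. Hook3 thus has no common shift over its probe sets. In RefSeq its bounds (chromosome 8, 26021421 to 26119618) overlap those of Rnf170, a pseudogene and a non-coding gene, and which part of the locus each probe set reads is not given in the sources used here.

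Zfyve28, the FYVE domain protein, has 1 probe set, 1434504_at. It read 10.10, 10.09 and 10.10 with β4a, 10.09, 10.00 and 9.89 with β4b and 10.36, 10.29 and 10.08 with β4e, against 10.68, 10.66 and 10.41 with eGFP. The variant arrays were all below the eGFP arrays. Mean differences were -0.49 ± 0.15, -0.59 ± 0.06 and -0.34 ± 0.02, so that the levels with the variants were lower by 1.40-fold, 1.51-fold and 1.26-fold. Spread between replicates was small here, and no other probe set was annotated to Zfyve28 alone.

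Acsl6, the acyl-CoA synthetase, read 9.59, 9.79 and 9.31 with β4a, 9.59, 9.96 and 9.48 with β4b and 9.64, 9.81 and 9.17 with β4e, against 9.08, 9.24 and 8.82 with eGFP (1451257_at). β4e replicate 3 was the one variant array within the eGFP range. Mean differences were 0.52 ± 0.03, 0.63 ± 0.12 and 0.49 ± 0.12, and the 9 lay between 0.35 and 0.72. The other probe set, 1437031_at, averaged 0.09. It was below eGFP with all 3 variants in replicate 1 (-0.25, -0.48 and -0.33 for β4a, β4b and β4e) and above it with all 3 in replicates 2 and 3.

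Haghl, the relative of glyoxalase II, had 3 of 4 probe sets in accord. The leading one, 1428630_x_at, read 7.68, 7.77 and 7.51 with β4a, 7.65, 7.63 and 7.76 with β4b and 7.26, 7.56 and 7.41 with β4e, against 7.00, 6.57 and 7.21 with eGFP. eGFP replicate 2 was the lowest array, and the 3 differences of replicate 2 were the largest of each variant. Over 9 differences the mean was 0.66 for 1428630_x_at, 0.65 for 1429958_x_at and 0.54 for 1428584_a_at, each above 0 in 9 of 9 and without overlap between variant and eGFP arrays. The second of these had the smallest spread, with 0.70 ± 0.12, 0.76 ± 0.14 and 0.48 ± 0.11 for β4a, β4b and β4e. The fourth, 1433650_at, read 4.04 to 4.80, near background, and averaged -0.05. On this array design the suffix x marks a set with probes that also match other sequences, and Haghl (chromosome 17, 25779843 to 25785586) overlaps Ciao3 and Mir6966 in RefSeq, and which of these transcripts its probes also match is not given in the sources used here.

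Limd2, the small LIM protein, showed the largest shift of the 10 on its leading probe set, 1456377_x_at. It read 7.46, 8.10 and 5.65 with β4a, 8.46, 8.54 and 6.26 with β4b and 7.55, 8.01 and 6.09 with β4e, against 6.80, 7.16 and 5.06 with eGFP. Replicate 3 was lowest in every group, by 2.19 between the lowest and highest mean of the 3 numbers, which exceeded any difference from eGFP. Mean differences were 0.73 ± 0.19, 1.42 ± 0.23 and 0.88 ± 0.14, or 1.66-fold, 2.67-fold and 1.84-fold. The 3 other probe sets carried little signal: 1429104_at read 4.05 to 4.69 with a mean difference of 0.08, and 2 read below 4 on every array. Limd2 (chromosome 11, 106156254 to 106160729) overlaps Map3k3 and Gm10840 in RefSeq, and the leading set again bears the suffix x. RefSeq places Acsl6, which overlaps the non-coding gene Gm12224, on chromosome 11 from 54303805 to 54364756. Zfyve28, which overlaps Cfap99, lies on chromosome 5 from 34194893 to 34288368. Abl2 (chromosome 1, 156558590 to 156649619), Zfp207 (chromosome 11, 80383279 to 80408561) and Tpp2 (chromosome 1, 43933970 to 44003000) overlap no other gene there.

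Zfp207, the Bub3 partner, was lower on its leading probe set 1434752_at, with 6.20, 6.92 and 8.24 with β4a, 6.31, 7.02 and 8.12 with β4b and 6.53, 7.36 and 8.25 with β4e, against 6.92, 7.69 and 8.95 with eGFP. Within each number the eGFP array was the highest. Mean differences were -0.74 ± 0.03, -0.71 ± 0.11 and -0.47 ± 0.20. Of its 5 other probe sets, all tested, 1438714_at averaged -0.40 with 8 of 9 below 0, and the remaining 4 averaged -0.22, -0.04, 0.02 and 0.35 with mixed signs. The probe set 1455092_at (8.86 to 10.07) averaged -0.04 although the annotation ties it to the same sequence record as the leading set.

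Tpp2, the tripeptidyl peptidase, split into 2 kinds of probe set. The leading one, 1430575_a_at, read 5.25, 7.45 and 7.71 with β4a, 5.26, 7.60 and 7.68 with β4b and 5.61, 7.66 and 8.17 with β4e, against 5.93, 8.23 and 8.41 with eGFP. The groups overlapped, since replicate 1 of each lay far below the eGFP arrays of the other numbers, but within a number eGFP was the highest. Mean differences were -0.72 ± 0.05, -0.68 ± 0.05 and -0.37 ± 0.17. A second set from the same sequence record, 1430576_at, averaged -0.51 and was below eGFP in 9 of 9, and both were lowest in replicate 1 in all 4 groups (means over the 4 arrays of a number of 5.51, 7.73 and 7.99 for the first and 5.82, 7.70 and 7.81 for the second). The other 3 sets did not follow. They averaged 0.25 with 8 of 9 above 0 (1421894_a_at), 0.22 with 7 of 9 (1438264_a_at) and 0.06 with 5 of 9 (1421893_a_at), and none had its lowest 4-array mean in replicate 1: the 4-array means of 1421894_a_at were 8.34, 8.30 and 8.10. With the leading set they correlated at -0.73, -0.37 and -0.34 over the 12 arrays, after subtraction of each number's mean.

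**Figure D2:**
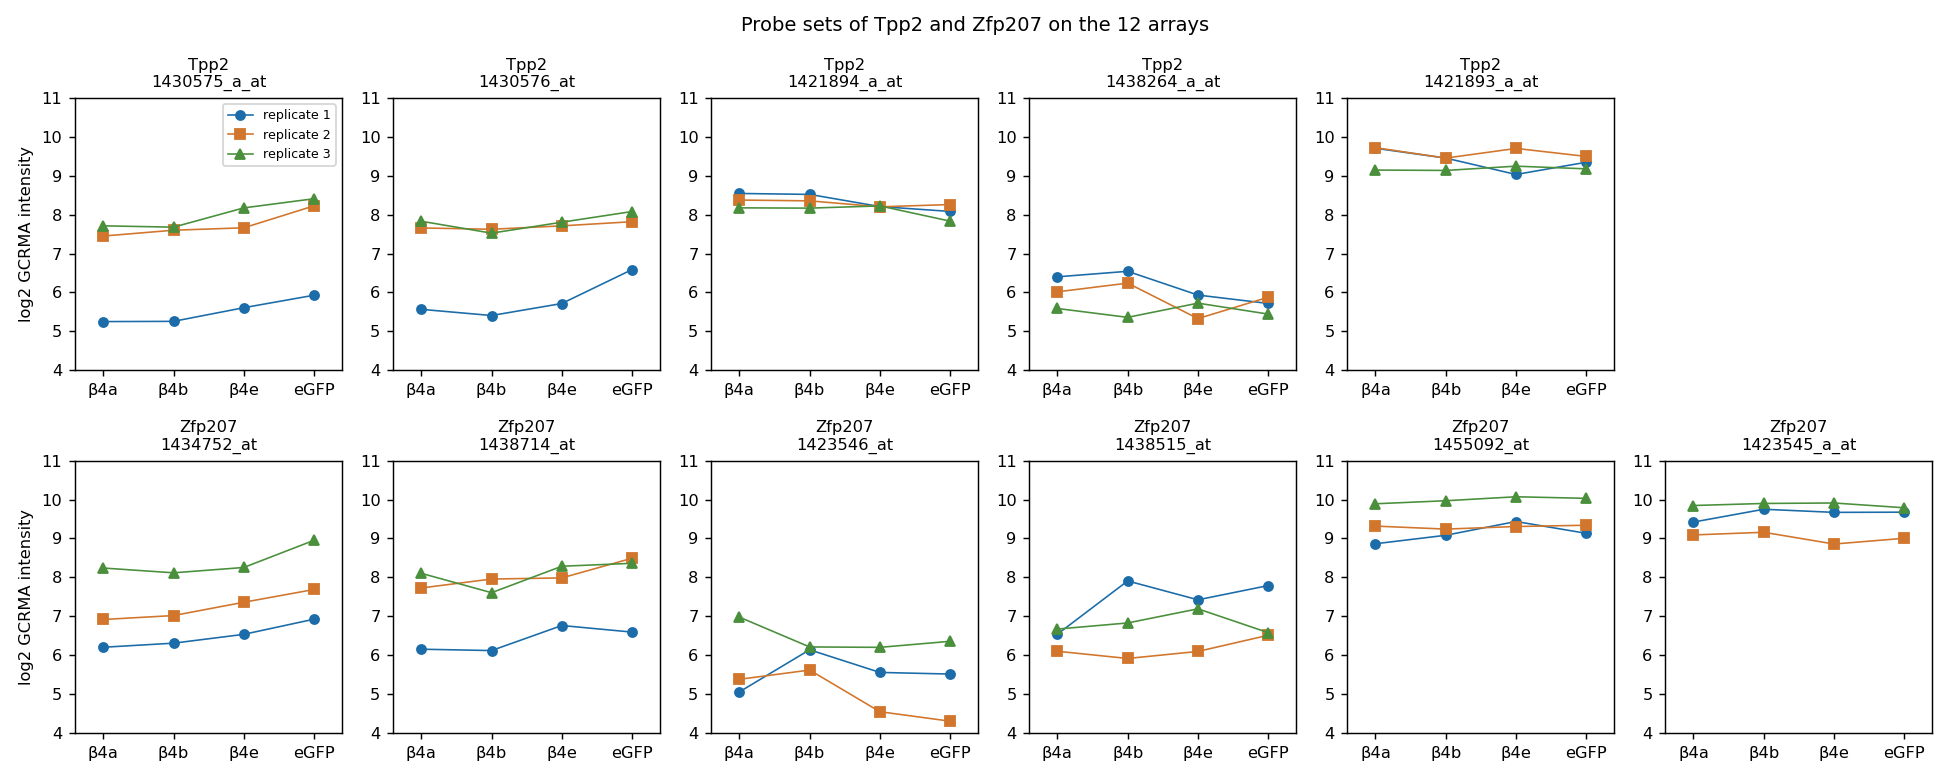
Log2 GCRMA intensity (y axis, common to all panels) of the 5 probe sets of Tpp2 and the 6 of Zfp207 in β4a, β4b, β4e and eGFP cultures (x axis), 1 point per array, lines joining arrays of a replicate number. In the first 2 Tpp2 panels replicate 1 lies between 5.25 and 6.59, below the other numbers in all groups, and in the other 3 its mean is not the lowest.

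Over the 8 genes with more than 1 tested probe set, 11 of the 19 probe sets beside the leading one (57.9%) had a mean of the same sign, and 4 (21.1%) had all 9 differences on the same side. These 4 belonged to Haghl, Rasgef1a and Tpp2. The 11 include 1446737_a_at of Hook3, which passed the filter only through variant arrays. For comparison, 785 other genes with at least 2 tested probe sets also had a leading set with all 9 differences of 1 sign. Of their 1514 further probe sets 72.8% had the same sign of the mean and 9.31% all 9 differences on the same side. The 10 genes were picked from these same differences, and the 785 were taken by sign alone, at any size. Nothing is therefore read from the shares of the 10 genes beside those of the others. The median correlation with the leading set was 0.29 for the 19 probe sets of the 8 genes and 0.38 for those of the others. Of the 19 further probe sets, 9 had means within 0.1 of 0, beside 10267 of all 23044 tested. The median of the 19 was 0.06, beside 0.02 for all tested probe sets, and that of the 5 untested ones was 0.03. Both medians pool genes picked as higher and as lower, whose signs cancel. They therefore cannot show whether these probe sets followed their leading one.

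**Figure D3:**
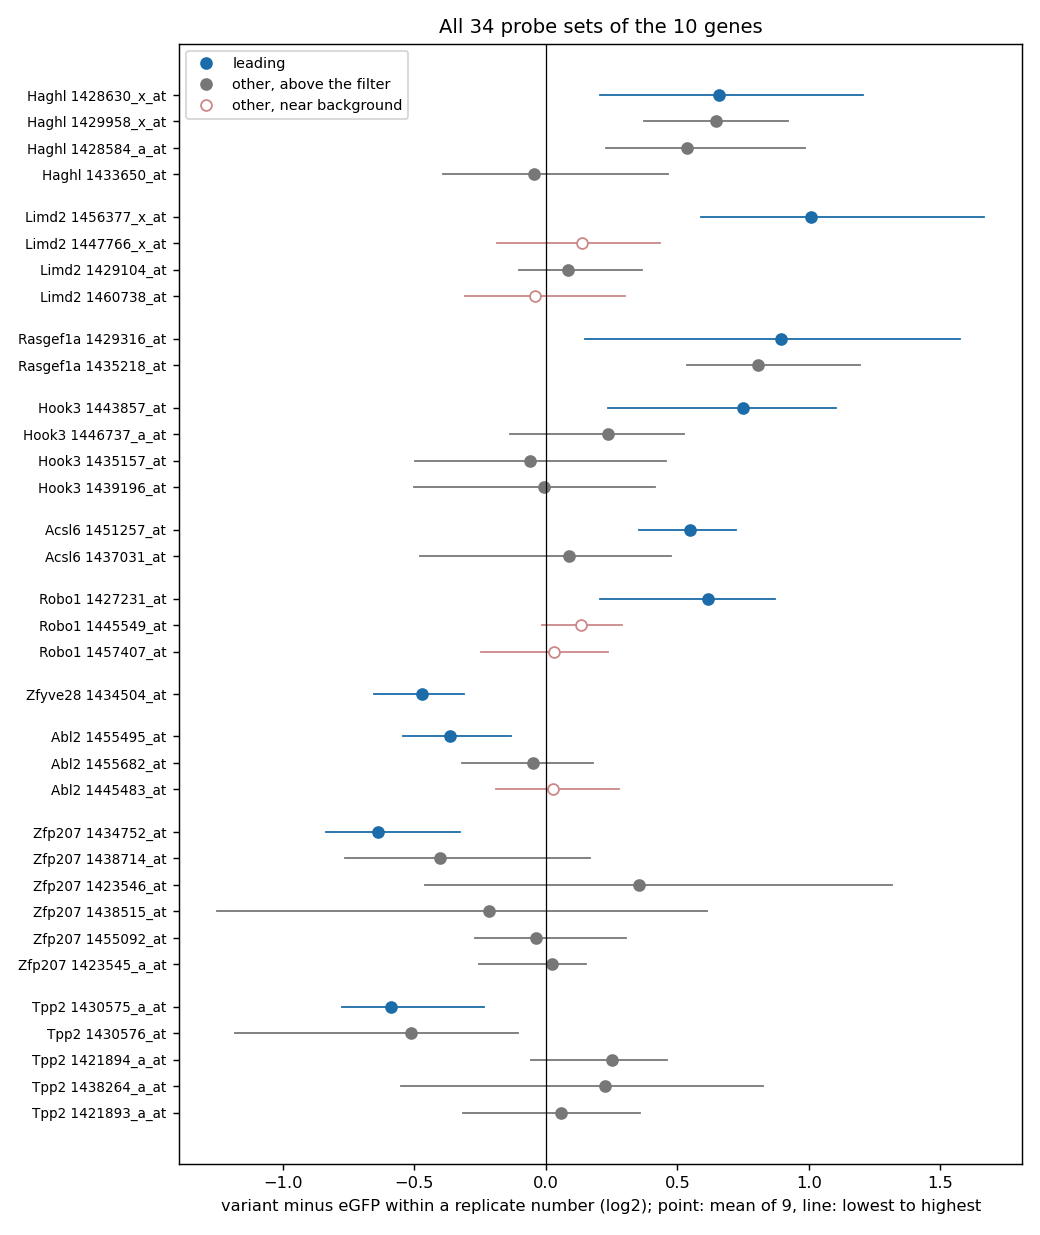
Mean of the 9 differences from eGFP (x axis, log2, point) with the lowest and highest difference (line) for each of the 34 probe sets (y axis, grouped by gene), with leading sets in blue, others above the filter in grey and those near background as open symbols. Blue lines stay on 1 side of 0, and so do 2 grey lines of Haghl and 1 each of Rasgef1a and Tpp2.

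The variants were also set against each other. The genes had been chosen as shifted alike by all 3 variants, so the variant arrays took part in the choice, and nothing about likeness is read from a lack of calls here. In the mean differences from eGFP, which are those of the choice and are given as a description, β4e was nearest to eGFP for 9 of the 10 leading probe sets, all but Limd2, for which β4a was. The same order held for 69.0% of the 2161 probe sets with all 9 differences of 1 sign and for 51.7% of all. With limma and Benjamini-Hochberg adjustment over 23044 probe sets, 0 of 29 probe sets of the 10 genes and 0% of all passed for β4a against β4b, β4a against β4e or β4b against β4e, with or without the replicate number as a block. The block fits apply because arrays with 1 number deviated together. At an unadjusted p under 0.05 without the block, the 29 gave 0, 1 and 2 probe sets (0.243%, 0.664% and 0.759% of all). With the block they gave 3, 6 and 9 (2.69%, 6.33% and 7.11% of all). Leading probe sets, picked by the size of their difference from eGFP, made up 2, 4 and 6 of these. The choice used the variant arrays, so nothing about a difference between variants is read from these counts.

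The sizes behind these tests were as follows for leading probe sets, each with its standard error in the blocked fit. Hook3 differed by 0.61 ± 0.11 for β4a minus β4e, the largest of that pair (limma adjusted p = 0.9999 without the block, 0.759 with it). Limd2 differed by -0.69 ± 0.14 for β4a minus β4b and 0.54 ± 0.14 for β4b minus β4e (limma adjusted p = 0.997 and 0.663 with the block). Robo1 differed by 0.33 ± 0.10 for β4b minus β4e, Tpp2 by -0.30 ± 0.10, and Zfyve28 by -0.25 ± 0.09. Abl2 and Acsl6 were the closest between variants, with -0.10 ± 0.10 and 0.13 ± 0.09 for β4b minus β4e. Without the block the standard error of Tpp2 was 1.001 and that of Limd2 0.864, above every difference of these 2 genes between variants.

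**Figure D4:**
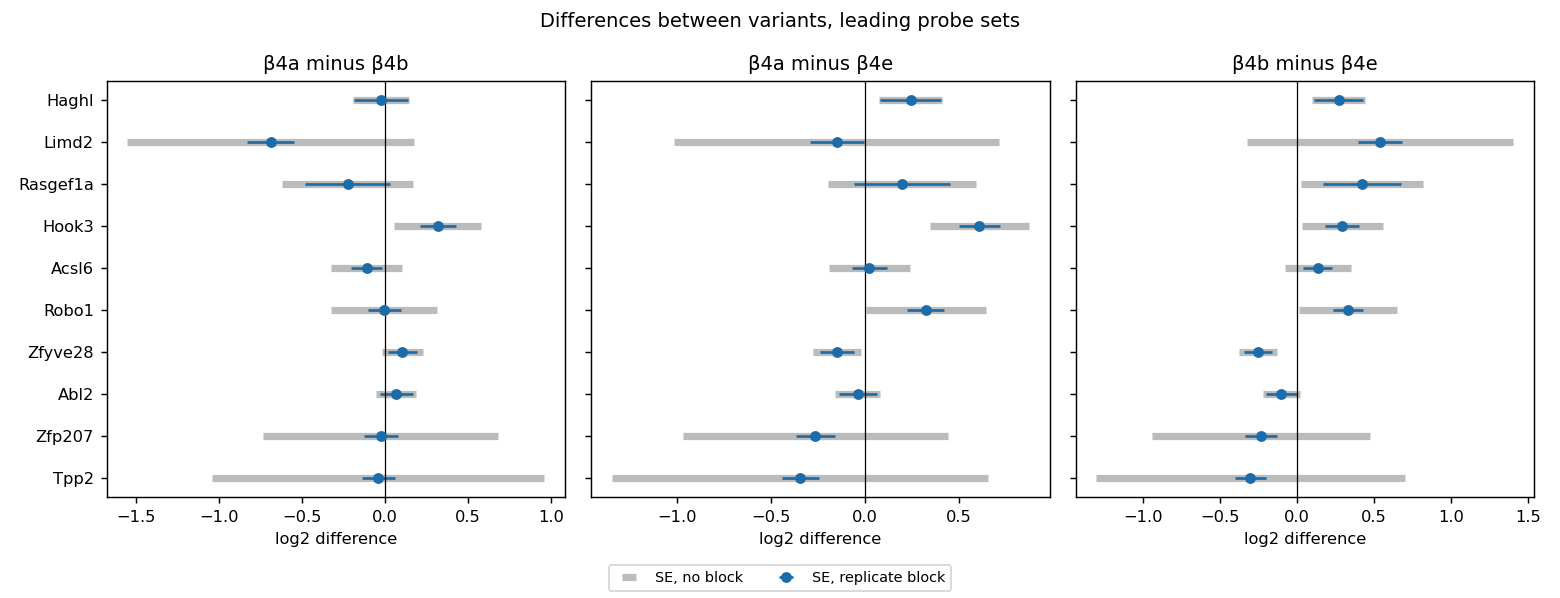
Log2 difference between variants (x axis) for the leading probe set of each gene (y axis), with the standard error of the fit without a block (grey bar) and with the replicate number as a block (blue line). For β4b minus β4e the 6 genes that were higher with the variants lie right of 0 and the 4 lower ones left of it, and none passed the adjusted test. Of the 3 variants β4e was nearest to eGFP in 51.7% of all tested probe sets and in 69.0% of those with all 9 differences of 1 sign. The genes were picked with these arrays, so nothing is read from the split.

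Levels also differed between replicate numbers, a comparison that played no part in choosing the genes. By limma's moderated F test with group as the other factor, 20 of the 29 probe sets passed (7 of the 10 leading ones), beside 65.2% of all tested probe sets, so the share is near the background. The levels of Tpp2 (adjusted p = 5.52e-07), Zfp207 (3.15e-06) and Limd2 (6.03e-06) on the leading sets differed most. Tpp2 and Zfp207 were lowest in replicate 1 and Limd2 in replicate 3. Robo1 (1.35e-04), Hook3 (9.20e-04) and Acsl6 (0.00162) passed too. Rasgef1a passed (0.0243), but the call ended on leaving out eGFP replicate 2 (0.0968), β4a replicate 2 (0.0661), β4b replicate 2 (0.0962) or β4b replicate 3 (0.0502). Haghl (0.815), Abl2 (0.478) and Zfyve28 (0.118) did not pass, and these 3 are among the 4 whose variant and eGFP arrays did not overlap. Groups separate more easily over all arrays where levels differ little between numbers, so this link is partly built in.

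Partner and family genes of the 10 were read from lists drawn up from general knowledge, with earlier results of these data known. Of 120 measured genes in 10 lists, 0 passed for the mean of the variants minus eGFP by limma, without or with the block. Of all tested probe sets 0% passed without the block and 0.0217% with it. The 0.0217% includes probe sets of the 10 genes, which were picked from this contrast. At an unadjusted p under 0.05 there were 0 without the block, beside 2.03% of all, and 18 of 120 with it, beside 17.5% of all. By sign alone 11 of the 120 (9.17%) were above eGFP in 9 of 9 differences and 3 (2.50%) below, beside 4.86% and 4.52% of all tested probe sets. These 2 shares of all are also the background of the counts by list that follow. The Ras and Rap list held 4 of 15 above and 0 below: Rapgef5, an exchange factor for Rap proteins, averaged 0.68 over the 9 differences, and the small GTPases Rap2a 0.34 and Rap2b 0.27, with a list median of 0.10. In the Slit and Robo list of 16 genes 2 were above and 2 below, with a median of 0.02. Robo2, a second Slit receptor, averaged -0.71, but it read below 4 on all replicate 1 arrays and its difference ran from -2.01 to -0.06. Srgap2, a GTPase-activating protein of the Slit pathway, averaged -0.31 and its relative Srgap1 0.19.

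Acyl-CoA synthetases and fatty acid handling genes had means above eGFP in 14 of 14 (median 0.26), beside 55.0% of all tested probe sets. All 9 differences were above eGFP in 2 of the 14, beside 4.86% of all tested probe sets. These were the brain carnitine palmitoyltransferase Cpt1c (0.21) and the fatty acid transporter Slc27a4 (0.15). The summed level of this list was lower than with eGFP in replicate 1 (-0.11 to -0.03 over the 3 variants) and higher in replicates 2 and 3 (0.33 to 0.48 and 0.14 to 0.60). The summed astrocyte markers did likewise (-0.28 to -0.07, 0.43 to 0.73 and 0.46 to 1.30), Fabp7 is in both lists, and the part of astrocytes in the list's level was not tested. The glyoxalase list had 5 of 5 means above (median 0.20). Pnkd, a glyoxalase-like protein of synapses, was above in 9 of 9 with a mean of 0.47 (limma adjusted p = 0.0852 with the block, 0.9997 without). Hagh, glyoxalase II itself, named for its kinship to Haghl and not by rule, averaged 0.02. The Hook and dynein list had 1 of 20 above in 9 of 9, the dynein intermediate chain Dync1i1 (0.34), and a median of -0.01. In the Abl list 1 of 13 was below in 9 of 9, the adaptor Crk (-0.06), with a median of -0.0017. Among the peptidases 1 of 8 was above, the prolyl oligopeptidase Prep (0.17), with a median of 0.07. The early endosome list (17 measured), the spindle checkpoint list (3) and the LIM list (9) held 0 in either direction, with medians of -0.0042, 0.01 and 0.14. Means were above eGFP in 8, 2 and 9 of their genes in that order.

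Some probe sets of other genes followed the 10 closely over the 12 arrays, after the mean of each replicate number was subtracted. The values share the eGFP arrays and the replicate numbers, so Pearson's r is given as a description over 12 values. The 2 named per leading probe set have the highest r of 19471 to 19476 compared, so a high r is built into the choice. Nearest to Hook3 were Ahcyl1 (0.97) and Rora (0.97), to Acsl6 Pcnx2 (0.96) and Ppt1 (0.96), and to Limd2 Spast (0.96) and Cnih1 (0.95). Haghl went with Tspan17 (0.965) and Endod1 (0.965), Rasgef1a with Ppp1r7 (0.94) and Rufy3 (0.93), and Robo1 with Chid1 (0.98) and a probe set of Haghl (0.98). Of the lower genes, Zfyve28 was nearest to Sorl1 (0.98) and Fbxl16 (0.96), Abl2 to Cnot6 (0.96) and Dlgap3 (0.94), Zfp207 to Zfyve28 (0.95) and Insm1 (0.95), and Tpp2 to Insm1 (0.96) and Fbxl16 (0.95). Between the 10 leading probe sets r ran from 0.64 to 0.93 among the 6 higher genes, from 0.845 to 0.952 among the 4 lower genes and from -0.98 to -0.68 across the 2 directions, a split that the choice of the genes fixes.

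Markers of the cells in the cultures were read in the same way. Of all tested probe sets 55.0% had means above eGFP, which is the background of the counts of means by marker list. Granule cell markers, 11 measured, had means below eGFP in 9 and above in 2, with a median of -0.13. Fat2 (-0.47), Reln (-0.28) and Zic2 (-0.24), named after their values were seen, were below eGFP in 9 of 9 differences, whereas the granule cell receptor subunit Gabra6 averaged 0.02. Their summed intensity lay between 16.62 and 16.67 with β4a, 16.62 and 16.70 with β4b and 16.67 and 16.78 with β4e, against 16.72 to 16.79 with eGFP, on the log2 scale. Astrocyte markers had means above eGFP in 10 of 10 (median 0.50) with 0 above in 9 of 9. Their sum ran from 14.47 to 15.26 with β4a, 14.63 to 15.54 with β4b and 14.70 to 14.81 with β4e, against 14.03 to 14.88 with eGFP. In replicate 1 the astrocyte sum was lower with the 3 variants (-0.28 to -0.07), and in replicates 2 and 3 it was higher, as given above.

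The other marker lists gave smaller counts. Oligodendrocyte markers had means above eGFP in 7 of 7 (median 0.14) and microglial markers in 3 of 6 (0.01), beside 55.0% of all tested probe sets. Fibroblast and vessel markers had them in 5 of 6 (0.17) and Purkinje cell markers in 3 of 3 (0.25). Of the 3 Purkinje markers, Calb1 was above eGFP in only 4 of 9 differences and Pvalb in 3 of 9, whereas Car8 was above in 7 of 9. Aif1 and Itgam of the microglial list, Pecam1, Cldn5 and Kdr of the vessel list, and Pcp2 and Ppp1r17 of the Purkinje list did not pass the filter. Only 1 gene of these 4 lists was on 1 side of eGFP in 9 of 9 differences, Pdgfra at 0.42, also named after its value was seen. In bulk cultures fewer cells of a type and less RNA per cell cannot be told apart, and the part of cell makeup in the levels of the 10 genes was not tested beyond these values.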

How the data were processed

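Expression was measured on 1 Affymetrix 3′ array per sample from 500 ng of RNA. The deposited values were made by the authors with GCRMA, per the submitters' processing notes (version not given in the sources used here), and were taken as log2 intensities from their range in the deposited table, 1.27 to 14.8. They were used as deposited, without 64 control probe sets. GEO's platform annotation, which can be old, gave 1 gene symbol to 34945 probe sets. The number of arrays limits the precision. Linear models were fitted in R 4.3.3 by limma 3.58.1 with empirical Bayes moderation (a coefficient for each of the 4 groups, and 8 residual degrees of freedom or 6 when the replicate number was added as a block), with two-sided tests, Benjamini-Hochberg adjustment over 23044 probe sets and a threshold of 0.05, and were tested on simulated data. Replicate numbers pair the arrays: deviations from group means correlated at 0.699 to 0.884 in all 18 pairs of one number. In the 36 pairs of another number and another group they correlated at -0.741 to 0.146. The deviations of a group sum to 0, which pulls correlations between numbers down. The genes, lists and alternatives were chosen with earlier results of these data known. List genes were read on their brightest tested probe set. Named beside the 10 genes were up to 3 per list with all 9 differences of 1 sign and the 2 most alike per leading probe set. Where probe sets match along each gene is not used here.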

Additional observations from a re-analysis of the deposited data

How the results depend on the processing

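Without the block, 0 probe sets passed between any pair of variants or for the mean of the variants minus eGFP under each alternative run: no filter, a filter at 6, quantile normalization again, a variance trend, and each of the 12 arrays left out. With the replicate block the mean of the variants gave 5 probe sets in place of 0. Among them are Haghl 1429958_x_at, Limd2 1456377_x_at, Rasgef1a 1435218_at and Hook3 1443857_at. Their genes were picked from this contrast, so nothing is read from the count. When an array was also left out the blocked fit gave from 0 to 3 probe sets, with 3 on leaving out β4e replicate 1. It gave 1 each without β4e replicate 2, β4a replicate 1 and eGFP replicate 1, and 0 without any other array. β4a minus β4e gave from 0 to 1 in the same blocked fits, the 1 without β4a replicate 3, and the 2 other pairs 0. The block changed no call of the named genes between variants. Between replicate numbers 15027 probe sets passed, from 13557 to 14691 on leaving out 1 array, and 9881 with the filter at 6, which tests 13926 probe sets. Of the 29 probe sets of the 10 genes, 14 had all 9 differences of 1 sign, and the count was again 14 after centring and after quantile normalization. With 1 replicate number left out the count was 14 to 17, which can only stay or grow when differences are dropped.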
